A study of Mus musculus with 16 samples.

Results

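The class I phosphoinositide 3-kinases (PI3K) were followed at the RNA level through 9 genes that cover the catalytic subunits, their regulatory partners, a recruiting adaptor and an opposing lipid phosphatase. The genes were chosen by symbol, and each symbol matched 1 of the 55487 Ensembl identifiers in the table of counts. All 9 passed the filter on low counts, which kept 12372 genes. They comprised Pik3ca, Pik3cb, Pik3cd and Pik3cg for the catalytic subunits, Pik3r1, Pik3r5 and Pik3r6 for the regulatory subunits, Pik3ap1 for the adaptor and Inpp5d for the phosphatase. The label under which they were grouped speaks of phosphatases, and Inpp5d is the 1 phosphatase among the 9.

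Class I PI3K adds a phosphate to a membrane lipid to make PIP3, which draws AKT and other proteins with PIP3-binding domains to the plasma membrane. The enzyme is a pair of a catalytic and a regulatory subunit. The α, β and δ catalytic subunits, encoded by Pik3ca, Pik3cb and Pik3cd, bind p85-type regulatory subunits such as the product of Pik3r1, which dock on phosphorylated tyrosines of receptors and adaptors. The γ subunit, encoded by Pik3cg, instead binds the products of Pik3r5 (p101) or Pik3r6 (p84) and is activated downstream of G protein-coupled receptors, including chemokine receptors. The δ and γ subunits are most abundant in leukocytes, whereas α and β are made in most cell types. Pik3ap1 encodes BCAP, an adaptor that recruits PI3K to Toll-like receptors and the B cell receptor. Inpp5d encodes SHIP1, a phosphatase of blood cells that removes a phosphate from PIP3.

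The samples were bone marrow-derived macrophages (BMDMs), grown in culture from the marrow of wild-type Balb/c mice 8 weeks of age, with 16 samples in 6 groups. Plain medium without tumor factors (DMEM) was given alone to 2 samples, whose titles read No_CM, and with ruxolitinib (Rux), an inhibitor of JAK1 and JAK2, to 3 samples (DMEM + Rux). Conditioned media (CM) of 4T1 cells, a mouse mammary tumor line, were given to 3 samples alone, to 3 samples with ruxolitinib at 0.5 μM (CM + Rux) and to 3 samples with the same ruxolitinib dose plus IKK-16 at 0.8 μM, an inhibitor of the IKK kinases of the NF-κB pathway (CM + Rux + IKK-16). Another pair of samples got CM and Rux under titles that read 2 h, while the titles of the 3 CM + Rux samples read 4 h. By the study's methods, the BMDMs were serum starved for 2 h before CM. For cells given CM and ruxolitinib, the drug was added during this step, before CM. What the 2 h in the titles refers to and the dose of ruxolitinib in DMEM are not given in the sources used here. Medium from cultured 4T1 cells stands for soluble factors of a tumor only, IKK-16 was never given without ruxolitinib, and nothing in the labels says whether replicates were separate mice or cultures. The p-values below therefore measure the spread between these samples, which may be technical.

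Deposited counts summed to between 18449388 and 46215853 fragments per sample. Levels are given as CPM, a gene's counts scaled to a common library total, after relative log expression (RLE) scaling, and the least abundant of the genes, Pik3r6, had at least 462 counts in every sample. The 9 macrophage markers, among them Adgre1, Csf1r and Cd68, summed to between 40194 and 57241 CPM in a sample, most of it Lyz2. The lowest of them, Mertk, had at least 4.58 CPM in every sample. In CM against DMEM, Csf1r was called lower (log2 fold change -0.61) and Itgam (0.99) and Cd14 (2.68) higher. In CM + Rux against CM, Mertk (-1.71) and Mrc1 (-1.36) were called lower. Neutrophil, T and NK cell and epithelial marker lists summed to at most 3.74 CPM. Each of these lists summed higher in every CM sample than in DMEM, and S100a8 (7.84-fold) and Lck (3.08-fold) were called higher there. The fibroblast list summed to between 5.82 and 20.9 CPM, with overlapping ranges in all groups. The B cell list summed to between 80.1 and 144 CPM in DMEM, 87.9 to 140.7 CPM in DMEM + Rux, 55.6 to 71.4 CPM in the 2 h samples and 10.6 to 15.6 CPM in the other groups with CM. Nearly all of it was Ighm. Ms4a1 and Pax5 had at most 2 counts in any sample, whereas Cd79b, a part of the B cell receptor, had 1.14 CPM in DMEM and 0.142 CPM in CM and was called lower there (log2 fold change -2.95, adjusted p = 7.5e-05), as was Ighm (-3.24). In bulk RNA, fewer cells of a type and less RNA per cell cannot be told apart.

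The positions below are those of the GRCm38 build in the deposited table. Pik3r5 (chr11:68432121-68497849, plus strand) and Pik3r6 (chr11:68503019-68552698, plus strand) are neighbours in tandem, 5169 bases apart with no annotated gene between them. Pik3cd lies at chr4:149649168-149702571, minus strand, Pik3cg at chr12:32173473-32208659, minus strand, Pik3ca at chr3:32397671-32468486, plus strand, and Pik3cb at chr9:99036654-99140621, minus strand. Pik3r1 lies at chr13:101680563-101768217, minus strand, Pik3ap1 at chr19:41272377-41385102, minus strand, and Inpp5d at chr1:87620312-87720507, plus strand. Short annotated genes overlap Pik3ca (Gm37123), Pik3cd (Mir7023) and Pik3r1 (Gm36638) on the same strand, and the counts of these genes may leave out fragments that touch the exons of both. None of the 9 genes overlaps an annotated gene on the other strand.

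RefSeq promoter windows of 300 bases (GRCm38.p6) were found for 8 of the 9 genes, 12 windows in all, since some genes have several start sites. Pik3r6 had no window, so its promoter was not searched. The 250 bases before the start site are shown for Pik3r5, which had the largest rise in CM, for Pik3r1, a gene that fell in CM and has an NF-κB consensus match, and for Inpp5d, which was higher once IKK-16 was added to ruxolitinib. They are written on the strand of each gene, with motif matches in capitals.
Pik3r5 promoter (chr11:68431875-68432124, plus strand): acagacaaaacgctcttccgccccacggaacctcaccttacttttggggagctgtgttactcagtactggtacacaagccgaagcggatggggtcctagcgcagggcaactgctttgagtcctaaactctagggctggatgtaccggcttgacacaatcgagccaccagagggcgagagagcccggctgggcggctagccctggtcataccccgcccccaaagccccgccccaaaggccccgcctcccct
Pik3r1 promoter (chr13:101768218-101768467, minus strand): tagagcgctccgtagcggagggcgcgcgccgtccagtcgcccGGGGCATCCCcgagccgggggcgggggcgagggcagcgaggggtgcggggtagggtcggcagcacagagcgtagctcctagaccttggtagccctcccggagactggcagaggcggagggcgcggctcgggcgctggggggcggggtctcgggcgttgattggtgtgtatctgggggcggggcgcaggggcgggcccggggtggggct
Inpp5d promoter (chr1:87620062-87620311, plus strand): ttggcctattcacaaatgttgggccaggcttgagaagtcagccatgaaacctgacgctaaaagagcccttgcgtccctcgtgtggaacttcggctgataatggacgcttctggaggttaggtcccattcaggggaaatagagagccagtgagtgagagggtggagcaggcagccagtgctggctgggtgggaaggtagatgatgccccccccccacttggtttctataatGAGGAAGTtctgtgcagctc
Both strands of each window were searched for the STAT motif GAS (TTCNNNGAA), the NF-κB consensus, the PU.1 motif GAGGAAGT and the FOXO motif GTAAACA. The capitals in the Pik3r1 sequence are the NF-κB match, those in the Inpp5d sequence are the PU.1 match, and the Pik3r5 window holds none of the motifs searched. Of all 32851 promoter windows, 8.3% hold GAS, 4.51% the NF-κB consensus, 3.2% PU.1 and 3.65% FOXO. Of the 12 windows of these genes, 0 hold GAS, 1 the NF-κB consensus, 3 PU.1 (both windows of Pik3cg and that of Inpp5d) and 1 FOXO (Pik3cg). The windows of Pik3cg overlap, so that 1 PU.1 match is counted in both of them. No match overlapped a match of another motif. A match is a description of letters and not a bound site.

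Before any tumor factor was added, the adaptor and p101 were the most abundant of these RNAs. Per kilobase of exon (RPKM, computed from the scaled CPM), Pik3ap1 stood at 155 ± 18.5 in DMEM and Pik3r5 at 87.3 ± 12.04 (SD, n = 2). Inpp5d had 28.8 ± 9.09 and Pik3cd 26.7 ± 1.17, which left Pik3cd the most abundant of the catalytic subunits per length. Pik3cg had 15.1 ± 0.146, Pik3r1 12.5 ± 0.980, Pik3ca 12.5 ± 0.467, Pik3cb 11.5 ± 0.295 and Pik3r6 7.74 ± 0.263 RPKM. In CM the order changed at the top, with Pik3r5 at 230.3 ± 12.4 and Pik3ap1 at 145 ± 4.47 RPKM (SD, n = 3). Pik3r6 rose from the lowest place to 18.6 ± 1.91 RPKM, a level whose range overlapped that of Inpp5d (21.004 ± 5.74), while Pik3cd fell to 14.2 ± 1.96.

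**Figure D1:**
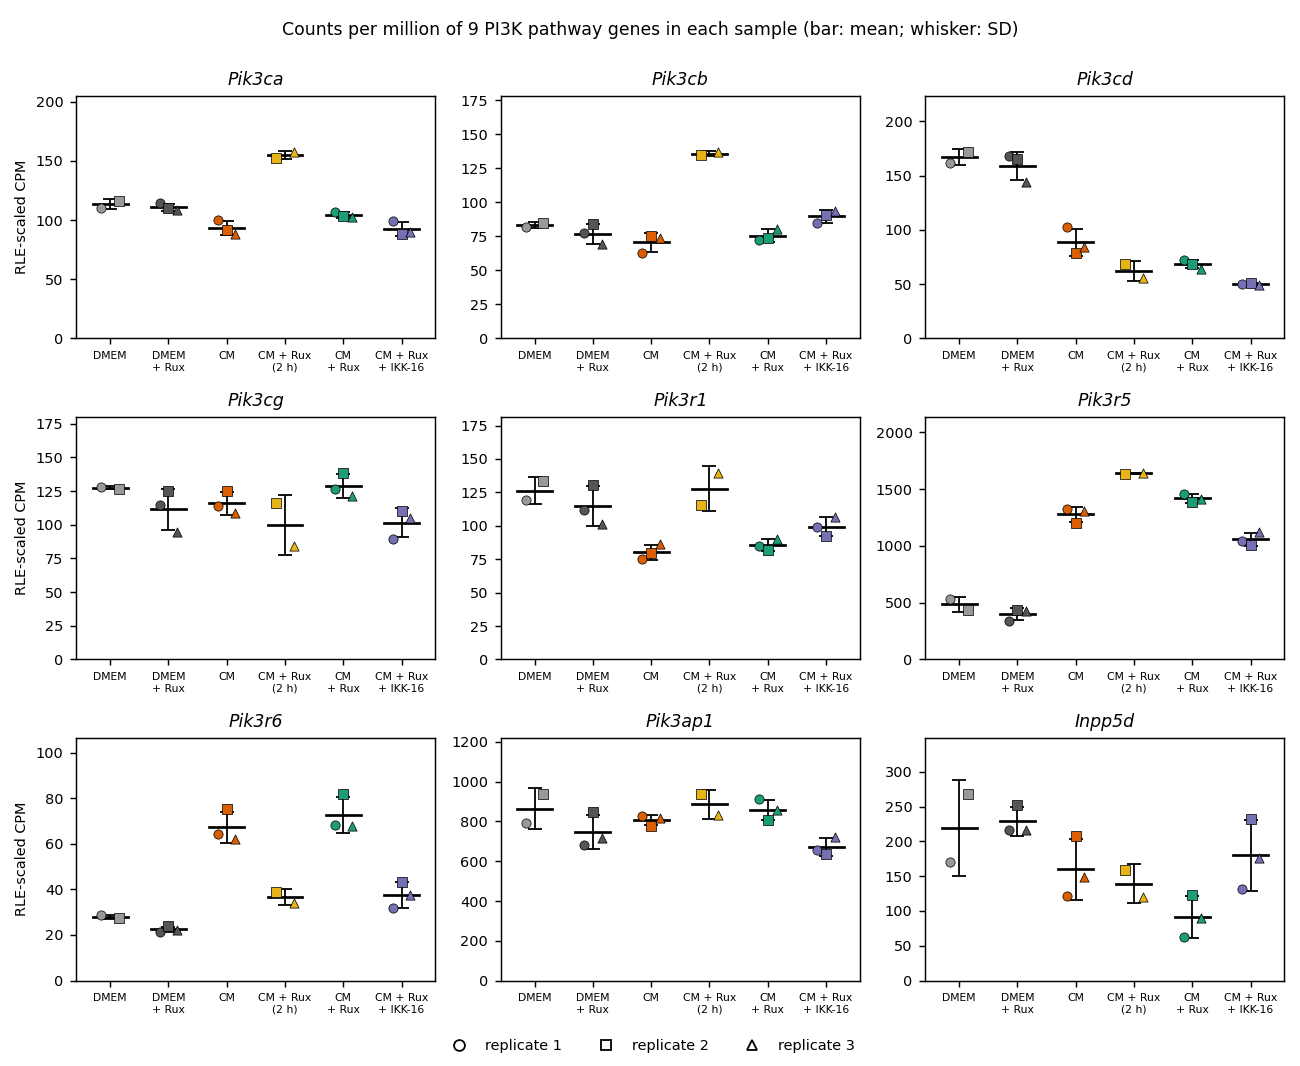
RLE-scaled CPM of the 9 genes (vertical axes, each from 0) in the 6 groups (horizontal axes), with 1 point per sample, its shape giving the replicate number, a bar for the mean and whiskers for the SD. Pik3r5 and Pik3r6 are higher in CM than in DMEM, Pik3cd is lower in each group with CM, and the 2 h samples are the highest for Pik3ca, Pik3cb and Pik3r5.

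The comparison of CM with DMEM asks what soluble tumor factors change in macrophages. Both partners of the γ subunit rose in CM, Pik3r5 by 2.64-fold and Pik3r6 by 2.40-fold, while the γ subunit itself did not pass the test. The δ subunit Pik3cd fell by 46.96% and Pik3r1, a gene for a p85 subunit, by 36.4%. Pik3r2, which encodes another p85 and is not among the 9, fell less, from a mean of 11.2 RPKM without CM or inhibitor (DMEM) to 9.62 with CM. The mean of Pik3r1 went from 12.5 to 7.97 RPKM, so its fall does not stand for all p85 RNA. Calls required both a log2 fold change above 0.5 or below -0.5 and an adjusted p below 0.05 in edgeR's quasi-likelihood test, with p-values adjusted over all 12372 genes. By this rule 2 of the 9 genes were called higher and 2 lower, beside 20.9% of all genes called higher and 24.1% called lower, so the share of these genes called is close to that of all genes. Their median log2 fold change was -0.23, beside -0.0050 over all genes tested.

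Among the catalytic subunits, Pik3cd had 162 and 172 CPM in DMEM and 102, 79.05 and 84.3 CPM in CM (log2 fold change -0.91, standard error 0.11, adjusted p = 8.2e-06). Every CM sample lay below both DMEM samples. Pik3ca had 110.3 and 116 CPM in DMEM and 100.1, 91.6 and 88.2 CPM in CM (log2 fold change -0.28, standard error 0.07, adjusted p = 0.0031). Pik3cb had 81.6 and 84.6 CPM in DMEM and 62.6, 75.1 and 73.8 CPM in CM (log2 fold change -0.23, standard error 0.09, adjusted p = 0.042). Both passed the p-value but not the fold change, with all CM samples below the DMEM samples. Pik3cg had 128 and 127 CPM in DMEM and 114, 125 and 108 CPM in CM, with a log2 fold change of -0.14 (95% interval -0.43 to 0.16, adjusted p = 0.41).

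Among the regulatory subunits, Pik3r5 had 532 and 437 CPM in DMEM and 1325, 1199.6 and 1310.0 CPM in CM (log2 fold change 1.40, standard error 0.12, adjusted p = 2.9e-07). Its neighbour Pik3r6 had 28.7 and 27.4 CPM in DMEM and 64.3, 75.1 and 62.2 CPM in CM (log2 fold change 1.26, standard error 0.13, adjusted p = 2.4e-06). For both partners of the γ subunit the groups stood apart, with each CM sample at more than the higher DMEM sample. Pik3r1 went the other way, from 119 and 133 CPM in DMEM to 75.2, 79.5 and 86.3 CPM in CM (log2 fold change -0.65, standard error 0.11, adjusted p = 1.7e-04), again without overlap.

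The adaptor Pik3ap1 had 791 and 936 CPM in DMEM and 827, 779.6 and 817 CPM in CM, and the CM samples lay around the lower DMEM sample (log2 fold change -0.10, standard error 0.11, adjusted p = 0.45). The phosphatase Inpp5d had 170.4 and 268 CPM in DMEM and 122, 208 and 149 CPM in CM. Its groups overlapped, and the difference did not pass the test (log2 fold change -0.46, standard error 0.30, adjusted p = 0.20). Relative to plain total counts, RLE scaling moved the log2 fold changes of CM against DMEM up by 0.31 at the median gene. By total counts Pik3ca (-0.59), Pik3cb (-0.55) and Inpp5d (-0.77) were called lower as well, which gave 5 called lower and left 2 called higher. The shares of all genes called are given for RLE scaling only, so this count has no matching share beside it.

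**Figure D2:**
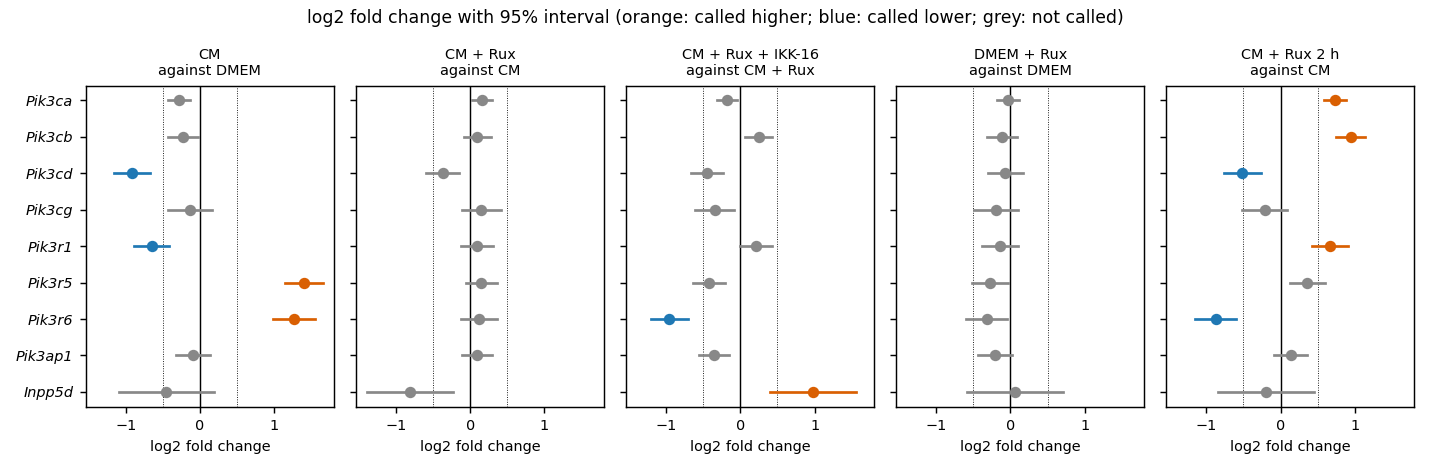
The log2 fold change (horizontal axes) of each gene in 5 comparisons, with its 95% interval from the edgeR fit and dotted lines at 0.5 in both directions. In CM against DMEM, 2 genes are called higher and 2 lower, and in CM + Rux against CM and DMEM + Rux against DMEM none is called.

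The mix of catalytic subunit RNAs shifted away from Pik3cd in the groups with CM. Counts were divided by exon length and each subunit was taken as a percent of the sum of the 4, as a description without a test. Pik3cd made up 40.5% ± 0.676 (SD, n = 2) in DMEM, 41.3% ± 0.771 (SD, n = 3) in DMEM + Rux and 29.5% ± 3.37 (SD, n = 3) in CM. Its share was lower still at 22.7% ± 1.02 (SD, n = 3) in CM + Rux, 18.7% ± 0.520 (SD, n = 3) in CM + Rux + IKK-16 and 17.1% ± 1.52 (SD, n = 2) in the 2 h samples. The lowest share in the samples without CM, 40.0%, lay above the highest in any sample with CM, 33.002%.

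Which of the other subunits held the larger share differed between groups. Pik3cg went from 22.997% in DMEM to 28.7% in CM and 31.7% in CM + Rux, where it was the largest of the 4 in each sample (30.5% to 33.5%). Pik3cb went from 17.6% in DMEM to 29.2% in CM + Rux + IKK-16 and 32.8% in the 2 h samples. Pik3ca stood at 18.9% in DMEM, 21.4% in CM and 29.7% in the 2 h samples. The summed level of the 4 subunits was 64.5 and 67.1 RPKM in DMEM and 46.3 to 49.6 RPKM in CM, so the shares describe a smaller total in CM. A share within a sample shows unequal change and not that any 1 subunit stayed level.

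**Figure D3:**
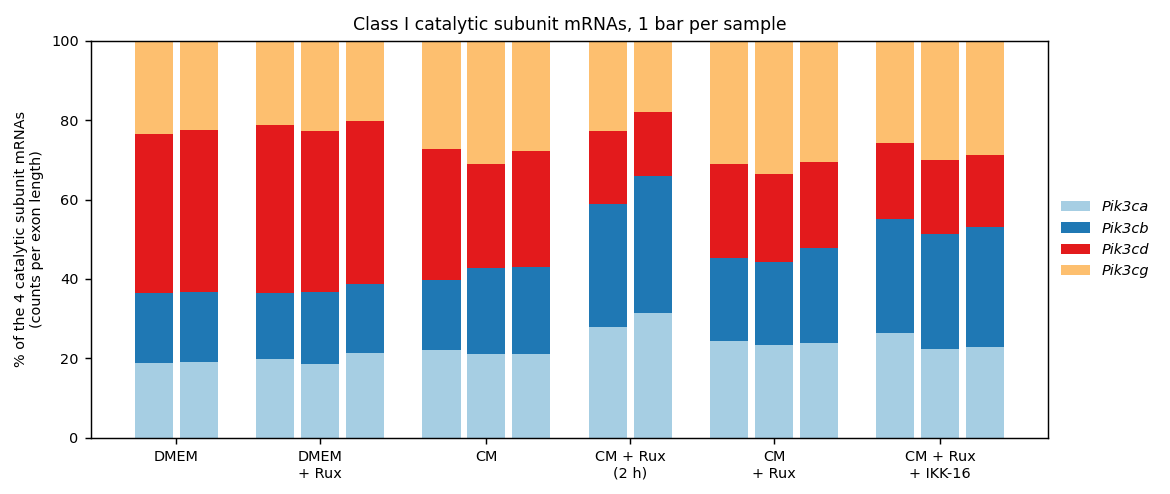
Share of each class I catalytic subunit RNA in the sum of the 4, in percent of counts per exon length (vertical axis), with 1 bar per sample grouped by condition. The Pik3cd part is 40.5% on average in DMEM, 29.5% in CM and 17.1% in the 2 h samples, where the Pik3ca and Pik3cb parts are the widest.

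Set against the γ subunit itself, p101 RNA was more abundant in each group with CM than in either group without it. The ratio of Pik3r5 to Pik3cg per exon length was 5.77 ± 0.740 in DMEM (SD, n = 2), 5.54 ± 1.15 in DMEM + Rux, 16.8 ± 2.04 in CM, 16.8 ± 1.42 in CM + Rux and 15.97 ± 1.89 in CM + Rux + IKK-16 (SD, n = 3), and 25.6 ± 5.81 in the 2 h samples (SD, n = 2). Within the pair of partners, Pik3r6 made up 8.19% ± 0.784 (SD, n = 2) in DMEM and 7.49% ± 1.10 (SD, n = 3) in CM, and the ranges overlapped. The share of Pik3r6 was lower in CM + Rux + IKK-16, at 5.18% ± 0.885 (SD, n = 3), and in the 2 h samples, at 3.31% ± 0.311 (SD, n = 2), and neither range overlapped that of CM.

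The comparison of CM + Rux with CM asks what JAK inhibition changes while tumor factors are present. None of the 9 genes was called by edgeR, beside 1.20% of all genes called higher and 2.13% called lower. At an unadjusted p under 0.05, 3 of the 9 passed, beside 15.3% of all genes, 1 of them with a log2 fold change beyond 0.5, and DESeq2 called 1 lower. That gene was Inpp5d, with 122, 208 and 149 CPM in CM and 61.9, 122 and 89.7 CPM in CM + Rux, in the order of replicates 1, 2 and 3. The groups touch, since CM + Rux replicate 2 stood at the level of CM replicate 1, but each CM + Rux sample was lower than the CM sample of its own number, by 49.4%, 41.1% and 39.9%. The log2 fold change was -0.81 (95% interval -1.39 to -0.23, adjusted p = 0.12). With the replicate number as a block, since same-numbered samples of these groups deviated together, it was -0.82 (adjusted p = 1.5e-04 by edgeR). DESeq2 gave an adjusted p = 0.037, and edgeR without the filter on low counts 0.0015. Over all alternatives the adjusted p lay between 1.5e-04 and 0.43, and it was 0.046 without CM + Rux replicate 2.

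Pik3cd had 102, 79.05 and 84.3 CPM in CM and 71.98, 68.7 and 64.3 CPM in CM + Rux (log2 fold change -0.37, standard error 0.10, adjusted p = 0.052), with every CM + Rux sample below the CM samples. Pik3ca went from 100.1, 91.6 and 88.2 CPM to 107, 104 and 102 CPM (log2 fold change 0.16, standard error 0.06, adjusted p = 0.20), with all CM + Rux samples higher. Neither was called. The partners of the γ subunit were not called either. Pik3r5 had 1459, 1384 and 1417 CPM in CM + Rux, each above the CM samples, with a 95% interval of the log2 fold change from -0.06 to 0.36. Pik3r6 had 68.4, 81.9 and 68.03 CPM, which overlapped CM, with an interval from -0.13 to 0.36. The intervals of Pik3cb, Pik3cg, Pik3r1 and Pik3ap1 all included 0 and lay between -0.13 and 0.42.

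Without tumor factors, ruxolitinib gave no called change in any of the 9 genes by edgeR, where 0.00% of all genes were called higher and 0.970% lower. Of the 9, 2 passed an unadjusted p under 0.05, beside 5.20% of all genes, and none of them had a log2 fold change beyond 0.5, and DESeq2 called none. These were the partners of the γ subunit, Pik3r5 with 339.6, 439 and 423 CPM in DMEM + Rux (log2 fold change -0.27, standard error 0.11, adjusted p = 0.78) and Pik3r6 with 21.3, 23.8 and 22.3 CPM (log2 fold change -0.32, standard error 0.13, adjusted p = 0.80). Inpp5d had 217, 253 and 217 CPM in DMEM + Rux and 170.4 and 268 CPM in DMEM (log2 fold change 0.06, 95% interval -0.58 to 0.70), and the DMEM + Rux samples lay between the DMEM samples.

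The effect of ruxolitinib in CM minus that in DMEM was tested as an interaction, and edgeR called none of the 9, beside 0.234% of all genes called higher and 0.178% lower. At an unadjusted p under 0.05, 3 of the 9 passed, beside 9.08% of all genes, 1 with a difference beyond 0.5, and DESeq2 called none. For Inpp5d the difference was -0.87 (95% interval -1.74 to -0.0014, adjusted p = 0.55), and -0.94 with the replicate block (adjusted p = 0.0047 by edgeR). DMEM and DMEM + Rux share only 2 numbers, too few to take the numbers as pairing the samples. Within them, Inpp5d in DMEM + Rux differed from DMEM by 27.1% in replicate 1 and by -5.80% in replicate 2. For Pik3r5 it was 0.43 and for Pik3r6 0.43, with adjusted p-values of 0.30 and 0.41.

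Adding IKK-16 to CM + Rux asks which of these RNAs depend on IKK while JAK is inhibited. Inpp5d rose 1.97-fold and Pik3r6 fell by 48.4%, so 1 of the 9 genes was called higher and 1 lower, beside 4.07% of all genes called higher and 3.66% called lower. Each of the 9 had an unadjusted p under 0.05, beside 28.8% of all genes, 7 of them without a call. Pik3r6, the p84 gene, had 68.4, 81.9 and 68.03 CPM in CM + Rux and 31.9, 43.5 and 37.5 CPM in CM + Rux + IKK-16 (log2 fold change -0.95, standard error 0.11, adjusted p = 1.9e-04). The samples with IKK-16 all lay below those without it. Pik3r5, the p101 gene, had 1042, 1012 and 1120.0 CPM with IKK-16 against 1459, 1384 and 1417 CPM without it, also without overlap (log2 fold change -0.42, standard error 0.10, adjusted p = 0.012). Its change passed the p-value but not the fold change.

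Inpp5d had 131, 232 and 176 CPM with IKK-16, and each sample was above every CM + Rux sample (log2 fold change 0.98, standard error 0.27, adjusted p = 0.026). Within replicate numbers 1, 2 and 3 the samples with IKK-16 were 2.12-fold, 1.90-fold and 1.96-fold higher. With the replicate block the log2 fold change was 0.99 (adjusted p = 2.5e-05). Without the block the call was lost when 1 library was left out, at an adjusted p of 0.099 without CM + Rux replicate 1, 0.072 without CM + Rux replicate 3, 0.094 without CM + Rux + IKK-16 replicate 2 and 0.059 without CM + Rux + IKK-16 replicate 3. The same CM + Rux samples serve as the treated group against CM and as the control here, so the low values of Inpp5d in them enter both comparisons.

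**Figure D4:**
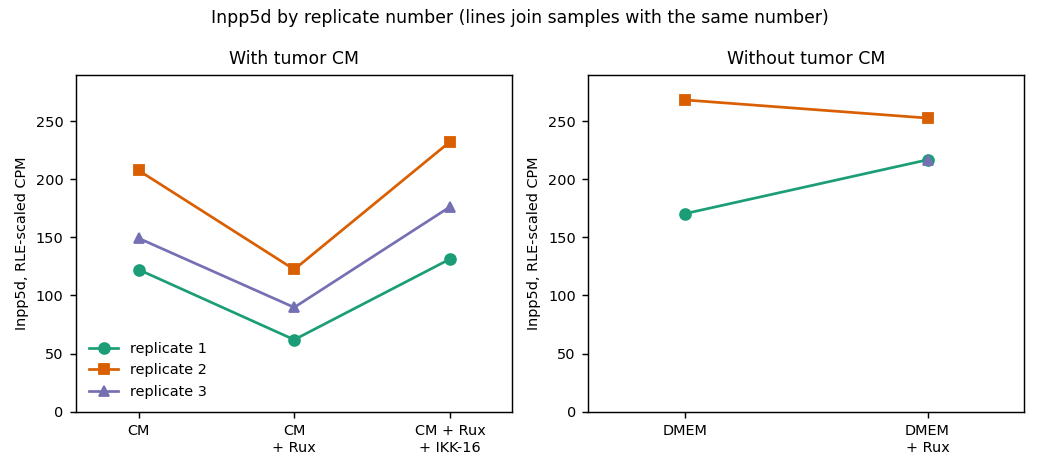
Inpp5d in RLE-scaled CPM (vertical axes, from 0) in the groups with CM at the left and without CM at the right, with lines joining samples of the same replicate number (DMEM has no replicate 3). Each of the 3 lines falls from CM to CM + Rux and rises again with IKK-16, and replicate 2 is the highest in each of the 3 groups with CM.

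Among the catalytic subunits, Pik3cd had 49.7, 51.1 and 49.3 CPM with IKK-16 against 71.98, 68.7 and 64.3 CPM without it (log2 fold change -0.45, standard error 0.10, adjusted p = 0.0093), and the adaptor Pik3ap1 had 657, 639 and 721 CPM against 911, 809.9 and 856 CPM (log2 fold change -0.35, standard error 0.10, adjusted p = 0.023). Both passed the p-value but not the fold change, with no overlap between the groups. Pik3cb (0.25, adjusted p = 0.064), Pik3r1 (0.22, adjusted p = 0.17), Pik3ca (-0.18, adjusted p = 0.076) and Pik3cg (-0.34, adjusted p = 0.080) did not pass.

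Both inhibitors together were also set against CM alone. Of the 9 genes, 2 were called lower and none higher by edgeR or DESeq2 (2 were higher at an unadjusted p under 0.05, beside 17.1% of all genes), beside 6.13% of all genes called lower and 6.60% called higher. The 2 were Pik3cd, 43.5% lower (log2 fold change -0.82, standard error 0.10, adjusted p = 9.3e-05), and Pik3r6, 44.1% lower (log2 fold change -0.84, standard error 0.11, adjusted p = 1.8e-04). Pik3cd with both inhibitors was the lowest of the 6 groups, at 50.03 ± 0.914 CPM (SD, n = 3), where CM alone gave 88.6 ± 12.3 CPM (SD, n = 3) and DMEM gave 167 ± 7.30 CPM (SD, n = 2). Pik3r6 with both inhibitors was at 37.6 ± 5.79 CPM (SD, n = 3), still above the 28.03 ± 0.951 CPM (SD, n = 2) of DMEM in each sample. Pik3r5 had a log2 fold change of -0.27 (adjusted p = 0.063) and stayed at 1058 ± 55.7 CPM (SD, n = 3), with each sample above both samples of DMEM. Pik3cb (0.34, adjusted p = 0.0096) and Pik3r1 (0.31, adjusted p = 0.042) passed the p-value alone, both higher in every sample with both inhibitors. Inpp5d with both inhibitors overlapped CM (0.17, 95% interval -0.40 to 0.74).

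In the 2 h samples of CM + Rux, Pik3ca, Pik3cb and Pik3r5 stood highest of the 6 groups, without overlap. Pik3ca, Pik3cb and Pik3r1 were called higher than in CM and Pik3cd and Pik3r6 lower, 3 and 2 of the 9 genes, beside 14.6% of all genes called higher and 13.3% called lower. The titles of the CM samples give no time, and the study's methods give 4 h of treatment for RNA. The comparison with CM thus differs in ruxolitinib and may differ in time, and these cannot be told apart. Pik3cb had 135 and 137 CPM at 2 h, 1.92-fold that in CM (log2 fold change 0.94, standard error 0.09, adjusted p = 4.1e-06). Pik3ca had 152 and 158 CPM, 1.66-fold that in CM (log2 fold change 0.73, standard error 0.07, adjusted p = 3.0e-06). Both 2 h samples exceeded all 14 other samples for these genes. Pik3r1 had 116 and 139.6 CPM, 1.59-fold that in CM (log2 fold change 0.67, standard error 0.11, adjusted p = 3.2e-04), on either side of the DMEM samples. Pik3r6 had 39.1 and 34.1 CPM, between DMEM and CM (log2 fold change -0.87, standard error 0.13, adjusted p = 1.3e-04), whereas Pik3r5 had 1639 and 1644 CPM, the highest of any sample (log2 fold change 0.36, standard error 0.11, adjusted p = 0.017). Pik3cd had 68.4 and 55.3 CPM (log2 fold change -0.51, standard error 0.11, adjusted p = 0.0026), and its call was lost without 2 h replicate 3 (-0.37) and without CM replicate 1 (-0.40).

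Against CM + Rux with the label of 4 h, the 2 h samples had 3 of the 9 genes called higher and 1 lower, beside 12.6% of all genes called higher and 10.7% called lower. Pik3cb was 1.80-fold (log2 fold change 0.85, standard error 0.09, adjusted p = 1.5e-05), Pik3ca 1.48-fold (log2 fold change 0.57, standard error 0.07, adjusted p = 3.6e-05) and Pik3r1 1.49-fold higher (log2 fold change 0.58, standard error 0.11, adjusted p = 0.0012), and Pik3r6 was 49.6% lower (log2 fold change -0.99, standard error 0.13, adjusted p = 7.2e-05). Without 2 h replicate 3 the log2 fold change of Pik3r1 was 0.44 and was not called, and without 2 h replicate 2 Pik3cg (-0.62) was called lower as well. Beside these differences, the dendritic cell marker list summed to 8.58 to 12.7 CPM in the 2 h samples and to at most 2.36 CPM in all others. Nearly all of it was Zbtb46, at 10.1 CPM and 7.05-fold the level in CM. Siglech, too low to be tested, had 0.480 CPM at 2 h, 0.289 CPM in CM and 0.177 CPM in CM + Rux, with both 2 h samples above those groups. Flt3 was at 0 and Clec9a and Xcr1 had at most 2 counts in both 2 h samples. The part of dendritic cell RNA in the result was not tested.

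The order of the groups by mean level differed from gene to gene. For Pik3r5 it ran from the 2 h samples through CM + Rux, CM and CM + Rux + IKK-16 to DMEM and DMEM + Rux, and only the last 2 overlapped. For Pik3r6 it ran from CM + Rux and CM, which overlapped, through CM + Rux + IKK-16 and the 2 h samples, which overlapped, to DMEM and DMEM + Rux. Pik3cd was highest in DMEM and DMEM + Rux, which overlapped, followed by CM, then CM + Rux and the 2 h samples, which overlapped, and last CM + Rux + IKK-16. For Pik3ap1 and Inpp5d every group overlapped the next in the order. For Pik3cg, whose highest mean was in CM + Rux, DMEM and CM were the one neighbouring pair that stood apart. Pik3ca ran from the 2 h samples through DMEM and DMEM + Rux, which overlapped, and CM + Rux to CM and CM + Rux + IKK-16, which overlapped. Pik3cb ran from the 2 h samples through CM + Rux + IKK-16 to DMEM, DMEM + Rux, CM + Rux and CM, where each overlapped the next. Pik3r1 ran from the 2 h samples through DMEM, DMEM + Rux and CM + Rux + IKK-16, each overlapping the next, to CM + Rux and CM, which overlapped.

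Other genes of the PI3K pathway were taken from 4 lists of 84 genes, of which 81 were tested. In CM against DMEM, 16 of the 81 were called higher and 24 lower, beside 20.9% and 24.1% of all genes, with a median log2 fold change of -0.013 against the -0.0050 of all genes. By total counts 10 were called higher, for which no share of all genes by that scaling is given. The list of other PI3K family subunits had 4 of 6 tested genes called lower by edgeR, with a median of -0.72. Pik3c3, the class III kinase of autophagy and endosomes, fell by 47.03% (log2 fold change -0.92, standard error 0.10, adjusted p = 4.9e-06) and Pik3c2a, a class II kinase, by 30.6% (log2 fold change -0.53, standard error 0.13, adjusted p = 0.0033). The other 2 called lower were Pik3ip1, an inhibitor of PI3K, with 2.25 ± 1.27 CPM (SD, n = 2) under DMEM but 0.149 ± 0.027 CPM (SD, n = 3) under CM (log2 fold change -3.90, standard error 0.62, adjusted p = 9.2e-05), and the p55 regulatory subunit gene Pik3r3 (log2 fold change -1.26, standard error 0.44, adjusted p = 0.023). Both had a mean under 1 CPM over these samples and were named after their values were seen. The call of Pik3c2a was lost without DMEM replicate 1 (-0.47) or without CM replicate 3 (-0.47).

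The other phosphoinositide phosphatases had 3 of 18 genes called higher and 7 lower in CM against DMEM, beside 20.9% and 24.1% of all genes. Inpp5b, a phosphatase that removes the same position of the lipid ring as SHIP1 does, had 55.97 ± 3.57 CPM (SD, n = 2) under DMEM but 271 ± 30.5 CPM (SD, n = 3) under CM (log2 fold change 2.27, standard error 0.15, adjusted p = 2.8e-08). Mtm1, a myotubularin, had a log2 fold change of 0.71, not called by total counts (0.39). Inpp4b (-1.44) and Inpp4a (-1.04), which act on the product of SHIP1, and Mtmr4 (-0.77) were lower.

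In the AKT and mTOR branch, 5 of 28 genes were called higher and 4 lower in CM against DMEM, beside 20.9% and 24.1% of all genes. Ddit4, a stress-induced inhibitor of mTORC1 also known as REDD1, had 1.73 ± 0.273 CPM (SD, n = 2) under DMEM but 63.8 ± 20.3 CPM (SD, n = 3) under CM, 37.3-fold (log2 fold change 5.22, standard error 0.42, adjusted p = 1.9e-07). Rictor, a subunit of mTORC2, was also higher (0.78), without a call by total counts (0.48). Deptor, an mTOR inhibitor (-1.54), Phlpp1, an AKT phosphatase (-1.01), and Foxo4, a transcription factor held back by AKT (-0.80), were lower. Of the adaptors and PIP3 effectors, 8 of 29 were called higher and 9 lower, beside the same shares of all genes. Gab1, an adaptor that recruits p85, rose 7.08-fold (log2 fold change 2.82, standard error 0.29, adjusted p = 1.7e-06), whereas its relative Gab3 had 7.48 ± 2.90 CPM (SD, n = 2) under DMEM but 0.688 ± 0.105 CPM (SD, n = 3) under CM (log2 fold change -3.42, standard error 0.35, adjusted p = 1.9e-06). Cyth1, a PIP3-binding exchange factor (2.21), and the Src family kinase Fgr (1.87) were higher, and the adaptor Blnk (-1.44) and the PIP3-binding protein Adap1 (-1.31) lower. Blnk and the Ighm level of the B cell list were both lower in CM, and the part of B cell RNA in the result was not tested.

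**Figure D5:**
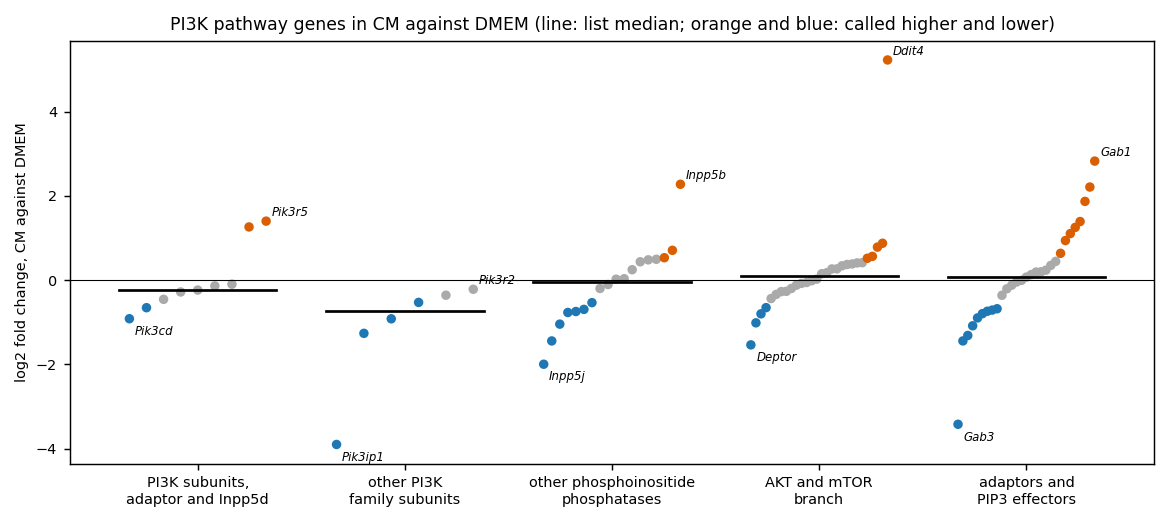
The log2 fold change in CM against DMEM (vertical axis) of each tested gene of the PI3K pathway, 1 point per gene, by list along the horizontal axis, with list medians as lines and the extreme genes named. Called genes lie on both sides of 0 in each list but that of other PI3K family subunits, where 4 of 6 are called lower.

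With ruxolitinib in CM, 1 of the 81 was called higher and 2 lower, beside 1.20% and 2.13% of all genes (lower calls numbered 6 with the replicate block, 5 without the filter and 4 with DESeq2). Blnk was higher (log2 fold change 1.25, standard error 0.26, adjusted p = 0.012), a call lost at an adjusted p of 0.059 without CM replicate 1 and 0.071 without CM replicate 2. The B cell marker Cd79b was 3.12-fold higher in CM + Rux, each sample above those of CM, without a call (adjusted p = 0.070), while Ighm had a log2 fold change of 0.14 (adjusted p = 0.89), and the part of B cell RNA was not tested. Inpp5b (log2 fold change -0.53, standard error 0.12, adjusted p = 0.019) and the kinase Tec (log2 fold change -0.81, standard error 0.18, adjusted p = 0.016) were lower, and no pathway gene was called lower without CM replicate 2, CM + Rux replicate 1 or CM + Rux replicate 3. Without tumor factors edgeR and DESeq2 each called 1 of the 81 lower and none higher, beside 0.970% and 0.00% of all genes by edgeR (1 was higher at an unadjusted p under 0.05, beside 1.46% of all genes), and by edgeR none was called without DMEM replicate 1, DMEM + Rux replicate 1 or DMEM + Rux replicate 2. In the interaction none was called by edgeR and 14 had an unadjusted p under 0.05, beside 9.08% of all genes, while 2 were called higher and 2 lower with the replicate block, and DESeq2 called 1 lower. The interaction includes DMEM, which has too few pairs to take the numbers as pairing the samples.

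IKK-16 added to CM + Rux gave 4 of the 81 higher and 4 lower, beside 4.07% and 3.66% of all genes. Inpp4b (log2 fold change 1.17, standard error 0.21, adjusted p = 0.0028) was higher, in the direction of Inpp5d, and so was Gab3 (1.29), whose call was lost without CM + Rux replicate 1 or 2 or CM + Rux + IKK-16 replicate 1 or 3, at adjusted p-values of 0.092, 0.069, 0.051 and 0.059. Ddit4 (log2 fold change -1.58, standard error 0.28, adjusted p = 0.0023) was lower. With both inhibitors against CM, 6 were higher (12 by total counts) and 7 lower, beside 6.60% and 6.13% of all genes, among them Blnk (1.63) and Gab3 (1.40) higher and Ddit4 (-1.91) and Fgr (-1.27) lower. The B cell marker Cd79b was also called higher with both inhibitors (1.55, adjusted p = 0.030). Ighm, nearly all of the B cell list, was not (0.14, adjusted p = 0.70), and the part of B cell RNA was not tested.

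At 2 h against CM, where ruxolitinib and possibly time differ, 16 of the 81 were higher and 16 lower, beside 14.6% and 13.3% of all genes. Among those with a mean of at least 1 CPM, Blnk (1.75) and Deptor (1.51) led the higher, and Fgr (-1.81) and Foxo3 (-1.71) the lower. The B cell markers Ighm (2.43, adjusted p = 6.4e-06) and Cd79b (1.82, adjusted p = 0.012) were called higher beside Blnk, and the part of B cell RNA was not tested. Foxo3, a transcription factor held back by AKT, had 27.5 ± 7.21 CPM (SD, n = 2) at 2 h, where CM alone gave 90.7 ± 2.95 CPM (SD, n = 3) and DMEM gave 123 ± 11.3 CPM (SD, n = 2). Against CM + Rux, 14 were higher and 14 lower, beside 12.6% and 10.7% of all genes, with Inpp4b (2.08) and Deptor (1.97) higher and Foxo3 (-1.34) and Ddit4 (-1.13) lower, the last not called without 2 h replicate 3 (adjusted p = 0.10).

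The genes whose levels over the 16 samples were most like those of Pik3r5 were Kcmf1, a ubiquitin ligase gene (Pearson r = 0.994), Gadd45b, a stress-induced signalling gene (r = 0.993), and Bcl2a1d, of the BCL2 family (r = 0.993). Bcl2a1d has near-identical copies in the mouse genome, and its counts are uncertain for that reason. For Pik3cd they were Herc4, a ubiquitin ligase gene (r = 0.968), Tlr8, an endosomal Toll-like receptor (r = 0.961), and Bcl6, a transcriptional repressor (r = 0.956). These values of log2 CPM describe 16 samples that fall apart into those with and without CM and share the differences between those groups. Pik3r5 and Pik3r6, neighbours in the genome, had an r of 0.790 over the same samples.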

How the data were processed

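RNA of 16 BMDM samples in 6 groups was sequenced as stranded libraries in read pairs. Per the labels and the study's methods, the authors trimmed reads with Trimmomatic 0.33, aligned them to GRCm38 with HISAT2 2.1.0 and deposited whole-number counts of fragments per Ensembl gene from featureCounts 1.6.2, without scaling. The command in the file header asked for both ends mapped, a minimum mapping quality and reverse strand, and set no option to count fragments with several alignments or several genes, so the counts of genes with close copies may be low.

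Symbols were found for 55141 of 55487 identifiers. The filter asked for more than 1 CPM in 2 samples or more and left 12372 genes, which were scaled by RLE and entered the quasi-likelihood test in edgeR 4.0.16 (limma 3.58.1, R 4.3.3) in 1 model of 6 group means with 10 residual degrees of freedom. P-values were adjusted over all genes tested (Benjamini-Hochberg), and genes were called at an adjusted p under 0.05 and a log2 fold change beyond 0.5. This filter, scaling and threshold follow the study's methods. The code was tested on simulated data. RPKM values divide scaled CPM by the deposited exon length. Figures used Python with matplotlib 3.10.9.

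Replicates carry numbers in the sample titles. Deviations from the group means correlated at 0.39 to 0.63 between same-numbered samples of CM, CM + Rux and CM + Rux + IKK-16, so these numbers were taken to pair the samples, from the data alone. No samples were copies of each other. Alternatives were TMM normalization, no filter, the replicate number as a block, DESeq2 1.42.0 and each sample left out in turn. Scaling by total counts, and all alternatives for the other pathway genes, were added after seeing the data. Shares of all genes called are given for the main fit only and not for the alternatives. The 9 genes and all lists were chosen with earlier results of these data known. Pathway genes named are those called with the largest changes, up to 3 per direction and list in CM against DMEM and up to 2 per direction elsewhere, with a mean of at least 1 CPM. Some genes that this rule names are not reported here.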

Additional observations from a re-analysis of the deposited data

How the results depend on the processing

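Of the log2 fold changes of the 9 genes recomputed under TMM normalization, no filter, the replicate block, DESeq2 and total counts, 351 kept their side of the thresholds, 8 passed them newly and 1 no longer did. With a sample left out, 1142 kept it, 3 passed newly and 7 no longer did, and no called change reversed. The number called lower in CM against DMEM was 5 by total counts. The number called lower in CM + Rux against CM was 1 without the filter, 1 with the replicate block and 1 with DESeq2, and 0 to 1 with a sample left out. The number called higher on adding IKK-16 was 0 to 1 with a sample left out. The number called lower in the 2 h samples against CM was 1 with the replicate block, where Pik3cd had -0.48, and 1 to 2 with a sample left out. Against CM + Rux it was 1 to 2 with a sample left out. In the interaction it was 1 with the replicate block (Inpp5d). The block changed no other call of the 9 genes, and the causes were not tested. DMEM and the 2 h group share only 2 numbers with each group they were compared with, at correlations of 0.20 to 0.35, too few pairs to take the numbers as pairing the samples. There the block also gave Pik3c2a a log2 fold change of -0.45 in CM against DMEM, which was not called. Same-numbered samples of different groups correlated at -0.00039 to 0.63 over all 35 pairs, and 34 were over 0.1. In counts not divided by length, the Pik3cd share was 34.001% in DMEM, 34.7% in DMEM + Rux, 24.03% in CM, 13.6% at 2 h, 18.1% in CM + Rux and 15.01% in CM + Rux + IKK-16. The Pik3r6 share was 5.51%, 5.35%, 5.02%, 2.18%, 4.88% and 3.44% in the same order. Groups of 2 or 3 samples limit the precision, and the share of depth in it was not tested.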
